A study of Mus musculus with 12 samples.

Results

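A set of 233 transcripts was higher in newly made, labeled RNA than in total RNA of mouse embryonic stem cells (mESCs) in every one of 6 comparisons. The members were chosen by their values. Of 121333 exon rows, 43248 had a value in all 12 libraries and a mean of at least 20 over the 6 total RNA libraries, and 233 of these (0.539%) had a labeled/total ratio of at least 1.5 in each of the 6 pairs of labeled and total libraries of the same labeling time and replicate number. A further 705 exon rows reached a mean of 20 in total RNA but lacked a value in at least 1 library and were not tested. All ratios of exonic values given here use the values that chose the members, so they describe the set and carry no test.

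The cells were XY mESCs of the DTCM23/49 line, grown in serum and leukemia inhibitory factor on gelatin. The uridine analog 4-thiouridine (4sU) was given at 200 µM for 15, 30 or 60 min, and RNA that had taken it up was pulled down from part of the RNA of the same plate. Labeled and total RNA of 3 labeling times gave 6 groups of 2 replicates each, and all groups, total RNA included, had received 4sU. Both replicates came from 1 culture that was divided and passaged, so the spread between them covers that line only.

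Transcripts in 4sU-labeled RNA were made during the labeling time. A transcript that is degraded quickly is replaced quickly, and its share of labeled RNA is then larger than its share of total RNA, whereas long-lived mRNAs accumulate in total RNA. Unspliced precursors are also a larger part of labeled RNA. Host genes of small nucleolar RNAs (snoRNAs), which guide the modification of ribosomal RNA, carry these RNAs in their introns, and many of their spliced products are degraded in the cytoplasm during translation. The ratio measured here is therefore an enrichment in labeled RNA and not a half-life.

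The mESC markers fixed for the check summed to between 20912 and 29424 in the total libraries, on the deposited scale, taken here as length-normalized, whose sum per library was between 19988830 and 19992902, whereas 6 fibroblast feeder markers summed to between 29.8 and 55.8 with 3 of the 6 at 0 in all libraries, 5 primitive endoderm markers to between 25.4 and 75.6, and 7 germ layer and trophectoderm markers to between 32.3 and 155, with 2 at 0. Intronic values made up 6.53% to 7.41% of the total libraries. In labeled RNA this share was 9.35% to 14.8% in 4 libraries. In replicate 2 it was 7.24% at 15 min and 6.99% at 60 min, both within the range of total RNA. When the pairs of these 2 libraries were left out, 1045 transcripts met the rule on the other 4 pairs. Neither sequencing depth nor counting error can be read from the deposited values. In these bulk samples, fewer cells that make a transcript and less of it per cell cannot be told apart.

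Promoters of 4 members are shown because a shared cAMP response element, TGACGTCA, was found near their starts. The sequences are RefSeq promoters, build GRCm38.p6, from 250 bases before to 50 bases after the start, with the element in capitals. Gas5 and Snhg15 are snoRNA hosts, and Ppp1r15a and Dusp1 are induced by stress and growth signals.
Gas5, chr1:161034916-161035215, plus strand: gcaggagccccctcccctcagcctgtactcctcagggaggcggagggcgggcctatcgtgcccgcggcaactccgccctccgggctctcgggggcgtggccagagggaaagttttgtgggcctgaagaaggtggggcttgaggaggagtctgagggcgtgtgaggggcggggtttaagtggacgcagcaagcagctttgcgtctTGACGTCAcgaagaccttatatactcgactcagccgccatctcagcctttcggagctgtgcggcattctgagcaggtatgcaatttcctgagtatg
Snhg15, chr11:6528711-6529010, minus strand: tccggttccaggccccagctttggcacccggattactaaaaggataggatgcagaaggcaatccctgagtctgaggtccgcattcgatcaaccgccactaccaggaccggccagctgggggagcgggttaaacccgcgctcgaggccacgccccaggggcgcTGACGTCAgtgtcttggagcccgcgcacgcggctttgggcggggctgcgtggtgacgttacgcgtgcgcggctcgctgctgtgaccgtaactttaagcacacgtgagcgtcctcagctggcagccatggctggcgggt
Ppp1r15a, chr7:45526219-45526518, minus strand: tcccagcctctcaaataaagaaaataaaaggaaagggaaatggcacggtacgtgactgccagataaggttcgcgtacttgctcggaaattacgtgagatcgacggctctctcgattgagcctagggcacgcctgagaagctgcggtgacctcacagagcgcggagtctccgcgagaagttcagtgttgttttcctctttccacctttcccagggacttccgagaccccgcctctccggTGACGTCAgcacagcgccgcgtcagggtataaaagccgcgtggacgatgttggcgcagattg
Dusp1, chr17:26508423-26508722, minus strand: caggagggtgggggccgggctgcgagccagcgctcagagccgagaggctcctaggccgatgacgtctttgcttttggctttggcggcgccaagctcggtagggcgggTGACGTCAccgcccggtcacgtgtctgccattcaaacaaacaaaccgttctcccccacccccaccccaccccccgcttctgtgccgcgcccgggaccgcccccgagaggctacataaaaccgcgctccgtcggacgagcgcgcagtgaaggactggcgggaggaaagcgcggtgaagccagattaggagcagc
The element starts at position -46 from the start site of Gas5, -88 of Snhg15, -12 of Ppp1r15a and -143 of Dusp1. It was also found in Ppan and Ranbp6, so 6 of 62 member genes with a promoter in the table (9.68%) held it, against 292 of 7303 tested genes (4.00%) and 1.79% of all 32851 promoters. The element reads the same on both strands. The TATAAA motif, searched on both strands, was found in 8 of the 62 (12.9%, against 8.60% of tested genes and 13.6% of all promoters), and the E-box CACGTG in 7 (11.3% against 12.4% and 7.15%). The serum response CArG motif was found in 1 (1.61% against 1.68% and 1.63%). A match is a description of the letters and was not tested as a site.

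Members were mostly of low abundance. The mean in total RNA ran from 20.1 to 33072, with a median of 39.4 against 81.9 over all tested transcripts. The median member had a lowest ratio of 1.74 and a median ratio over the 6 pairs of 2.64, whereas the median tested transcript had a median ratio of 0.909. The lowest ratio was at least 2 in 59 members and at least 3 in 6. In 201 of 233 members the lowest of the 6 labeled values was above the highest of the 6 total values, a pattern found in 2.02% of tested transcripts, and a ratio above 1 in all 6 pairs, which every member has by the rule, was found in 4.78% of tested transcripts. The rule and this count use the same contrast. Members together made up 0.366% to 0.475% of the total libraries and 0.937% to 1.70% of the labeled libraries. The 3 most abundant members carried 75.6% of their summed mean in total RNA and 81.1% in labeled RNA, and the other 230 made up 0.0913% to 0.112% of the total and 0.229% to 0.291% of the labeled libraries.

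**Figure D1:**
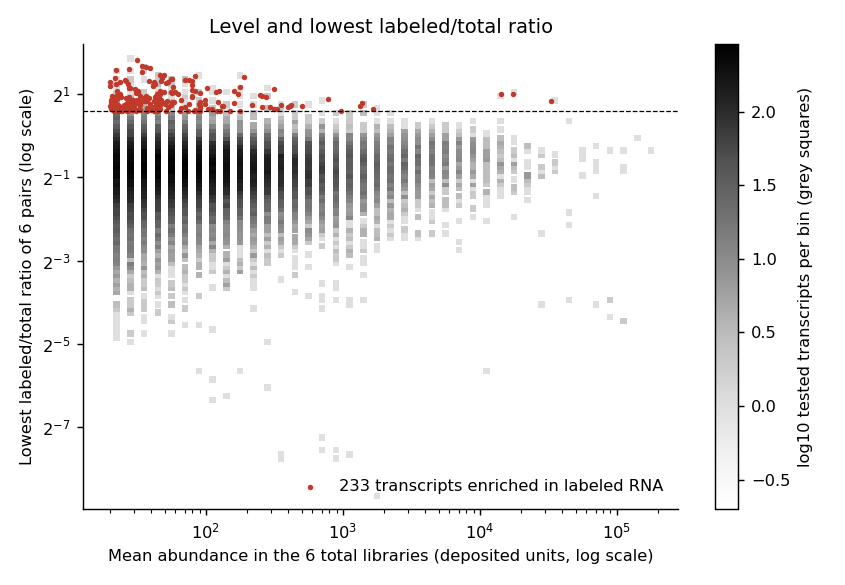
Each tested transcript by its mean abundance in the 6 total libraries (log scale, deposited units) and its lowest labeled/total ratio of 6 pairs (log scale). Grey squares are bins of the 43248 tested transcripts, red points are the 233 members, and the dashed line is the cutoff of 1.5; most members lie at the low end of abundance, and 3 lie far to the right, at 14241.5 and above.

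The members near the cutoff show how narrowly it divides the table. Just inside stood TCONS_00015959 with a lowest ratio of 1.50035, an Iscu transcript with 1.50046 and the antisense RNA Gm13936 with 1.50061. Just outside stood a processed transcript of Gm16586 with 1.49998, a coding transcript of Gdpgp1 with 1.49462 and a retained-intron transcript of Rrnad1 with 1.49375. The pair that set the lowest ratio was most often 60 min replicate 2 (69 members), followed by 60 min replicate 1 (53), 15 min replicate 2 (48), 30 min replicate 1 (44), 15 min replicate 1 (15) and 30 min replicate 2 (4). The mirror rule, a ratio of at most 1/1.5 in all 6 pairs, was met by 216 transcripts.

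The 2 replicates selected many different transcripts. In replicate 1, 1282 tested transcripts had a ratio of at least 1.5 at all 3 times, and 233 of these (18.2%) did so in replicate 2 as well, whereas 1.38% of all tested transcripts did. As the rule asks for both replicates, these 233 are the members, so the shares describe how far the replicates agreed and support nothing about the set. In replicate 2, 595 did, and the 233 were 39.2% of them, against 2.96% of all tested transcripts in replicate 1.

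By annotation, the largest class was that of transcripts assembled from reads, named TCONS in the table and paired with no gene there, which made up 28.3% of members (66, exact 95% interval 22.6% to 34.6%) but 5.24% of tested transcripts. Ensembl transcripts that GENCODE M1 does not hold made up 27.9% (65) against 17.9%. Protein-coding transcripts made up 14.2% of members (33) against 43.7% of tested transcripts. Among the 102 members held in GENCODE M1, from 88 genes, 28 (27.5%, interval 19.1% to 37.2%) had the retained-intron biotype, given to transcripts that keep an intron of a spliced gene, against 15.3% of tested M1 transcripts. Over all 233 members the biotype made up 12.02%, about the 11.8% of all tested transcripts. Of the 102, 33 (32.4%) were protein-coding against 56.8%. The intervals cover sampling of transcripts only, and isoforms of 1 gene share reads. Without the pairs of 15 min and 60 min in replicate 2, assembled transcripts were 40.8% of those that met the rule.

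**Figure D2:**
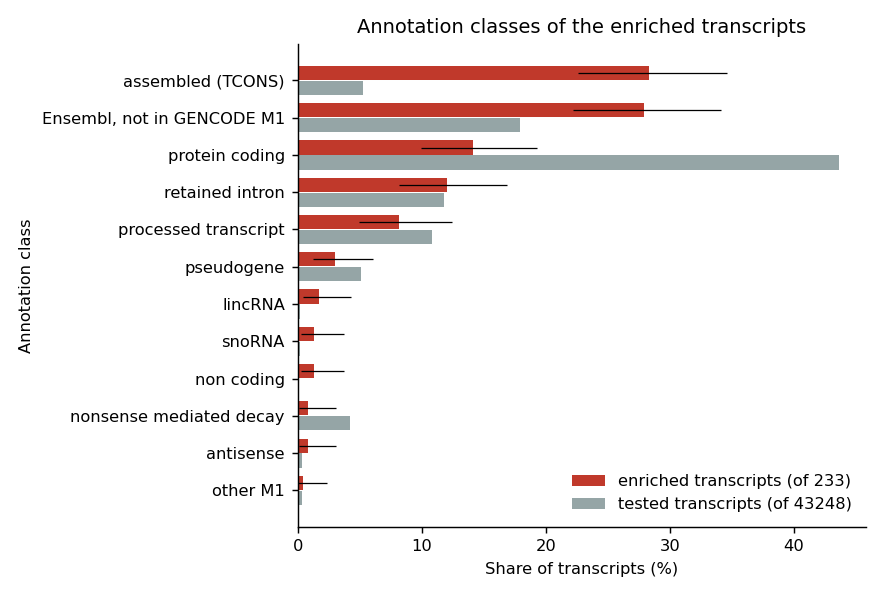
Share (%) of the 233 members (red, with exact 95% intervals) and of the 43248 tested transcripts (grey) in each annotation class. Assembled transcripts are 28.3% of members and 5.24% of tested transcripts, and protein-coding transcripts 14.2% and 43.7%.

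Members in M1 were short and had few exons. Their median length was 949.5 bases against 1322 for tested transcripts, and their median exon number 2.5 against 6. Of these members 72.5% had 2 to 4 exons, against 32.4% of tested transcripts, and 12.7% had a single exon, against 7.98%.

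Host genes of snoRNAs were well represented among members. Of 85 member genes that are not snoRNA genes themselves, 10 (11.8%) held a snoRNA gene within their bounds, against 1.87% of 11671 tested genes. They were Gas5, Snhg12, Snhg15, Snhg16, Snhg17, Snhg20, Zfas1, Dancr, 1110038B12Rik and Ppan. Of 12 tested host genes that M1 does not call protein-coding, 7 had a member, with 13 of their 63 tested transcripts (20.6%). A median ratio of at least 1.5 was found for 61 of these 63, whereas 7.63% of all tested transcripts reached it. Among 880 tested transcripts of 206 hosts that M1 calls protein-coding, 6 were members (0.682%, against 0.539% of all tested transcripts). These 6 came from Zfas1 (3), Snhg16 (2) and Ppan (1), so M1 counts Zfas1 and Snhg16 as coding hosts. Of the 880, 60 reached a median ratio of 1.5. The median over all 880 was 0.867, against 0.909 over all tested transcripts.

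Gas5 (chromosome 1), a noncoding host whose M1 gene holds 9 snoRNAs, had the highest level of the noncoding hosts with 3 of 25 tested transcripts as members. The most abundant of them, ENSMUST00000159153 with 9 exons, had labeled values of 2568 and 2771 at 15 min, 3516 and 3365 at 30 min and 2725 and 2756 at 60 min in replicates 1 and 2. Its total values were 1256 and 1248, 1567 and 1327, and 1227 and 1600. All labeled values lay above all total values, and the mean was 2950 ± 389.5 (SD, n = 6) in labeled and 1371 ± 168 (SD, n = 6) in total RNA. The median ratio of Gas5 transcripts was between 1.71 and 2.85 over the 25.

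Dancr, a lincRNA gene on chromosome 5 with 1 snoRNA, had all 4 of its tested transcripts in the set, the most of any gene. Its spliced transcript ENSMUST00000120364 had labeled values of 360 and 637 at 15 min, 595 and 585 at 30 min and 331 and 598 at 60 min, against total values of 172 and 85.9, 241 and 134, and 147 and 184. The lowest labeled value, 331, was above the highest total value, 241. The retained-intron transcript ENSMUST00000117249 had a lowest ratio of 2.68, the highest among named genes other than the pseudogene Gm11835.

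Zfas1, a host of 3 snoRNAs on chromosome 2, had 3 of its 5 tested transcripts in the set. ENSMUST00000143587 had labeled values of 1385 and 921 at 15 min, 1481 and 1422 at 30 min and 936 and 1885 at 60 min, and total values between 440 and 568. Snhg12, a host of 4 snoRNAs on chromosome 4, had labeled values of 628 and 1369, 1412 and 1160, and 817 and 1042, and total values between 288 and 539. Both had no overlap between labeled and total values, and their labeled values differed more between the 2 replicates than those of Gas5 at 15 and 60 min.

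The other hosts were lower. Snhg20 had a mean of 307 ± 145 in labeled and 131 ± 26.0 in total RNA (SD, n = 6 each). Snhg15 had 105 ± 21.7 and 42.7 ± 7.90, the Snhg16 transcript ENSMUST00000106378 had 184 ± 32.4 and 62.8 ± 13.1, and the Snhg17 transcript ENSMUST00000154030 had 129 ± 23.6 and 58.4 ± 6.86. The coding host Ppan, a ribosome biogenesis factor, was a member through a retained-intron transcript alone, with 64.3 ± 12.2 and 30.1 ± 5.21. In addition, 3 of 97 tested rows of snoRNAs themselves were members (3.09%, against 0.539% of all tested transcripts). Of these 3, 2 were SNORA21 and Snora21 copies on different chromosomes, whose reads could be split between copies. The median ratio over the 97 rows was 1.96, against 0.909 over all tested transcripts. A microRNA gene lay within 4 other member genes, Mir22hg, A430104N18Rik, E130102H24Rik and Ppp1r10 (4.71% of 85 genes against 2.18% of tested genes). Mir22hg, the host of miR-22, had a mean of 111 ± 30.7 in labeled and 30.8 ± 13.8 in total RNA.

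**Figure D3:**
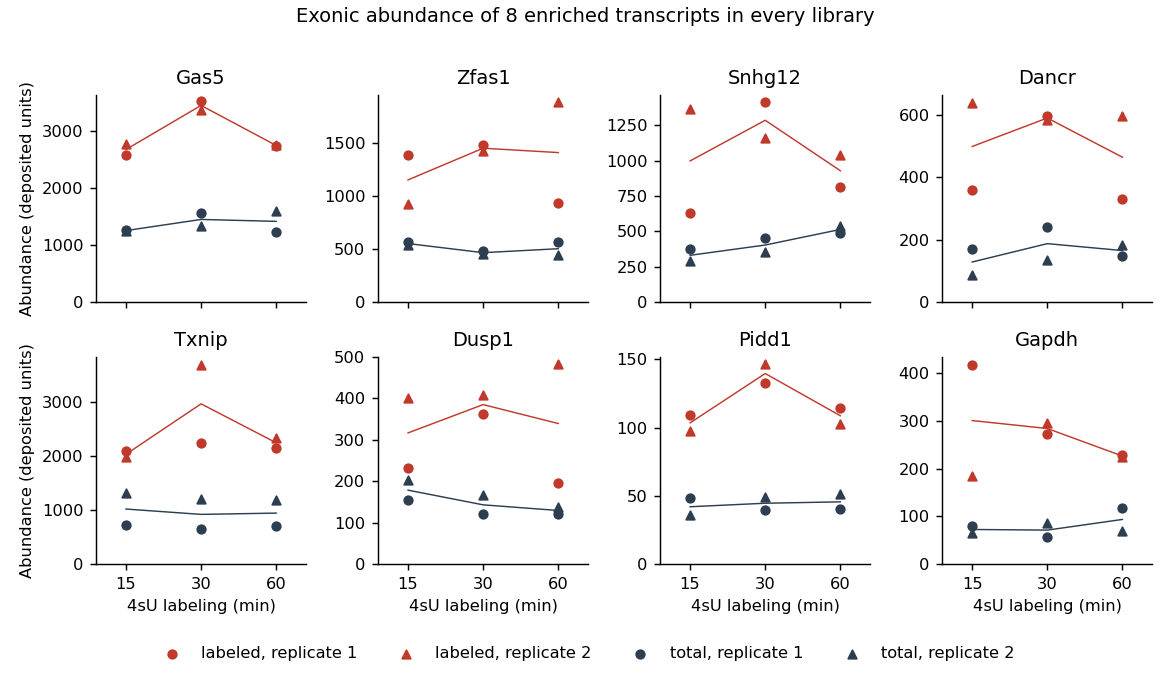
Exonic abundance (deposited units, axes from 0) of 8 member transcripts in each of the 12 libraries by 4sU labeling time, with labeled RNA in red, total RNA in dark blue, replicate 1 as circles, replicate 2 as triangles, and lines through the means of both replicates. Labeled values exceed total values of the same time and replicate in every panel, and for Dusp1 the lowest labeled value, 196, is below the highest total value, 203.

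Genes induced by stress and growth signals, whose mRNAs are textbook cases of fast decay, entered the set through single isoforms. Of 11 tested transcripts of immediate early genes, 1 was a member (9.09%, against 0.539% of all tested transcripts). It was a retained-intron transcript of Dusp1, the phosphatase that switches off MAP kinases. It had labeled values of 232 and 401 at 15 min, 363 and 407 at 30 min and 196 and 483 at 60 min, and total values of 154 and 203, 120 and 166, and 120.5 and 139. The labeled and total values overlapped across times. A median ratio of at least 1.5 was found for 7 of the 11 transcripts (63.6%, against 7.63% of all tested transcripts), 3 of them from Dusp1 and 2 from Egr1. Srf (0.793), Nr4a1 (1.13), Klf6 (1.17) and Klf10 (1.26) had lower median ratios. The coding transcript of Dusp1 (median ratio 2.47) and that of Ier2 (2.78) missed the rule through the pair of 15 min replicate 1, with ratios of 1.39 and 1.38. Egr1, a zinc finger factor, had median ratios of 1.55 and 1.59 for its tested transcripts.

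Of 44 stress response transcripts, 2 were members (4.55%, against 0.539% of all tested transcripts) and 12 (27.3%, against 7.63%) had a median ratio of at least 1.5, 5 of the 12 being isoforms of Txnip. Txnip, an inhibitor of thioredoxin that responds to glucose, was a member through a retained-intron transcript with labeled values of 2087 and 1980 at 15 min, 2245 and 3688 at 30 min and 2155 and 2338 at 60 min. Its total values were 725 and 1316, 646 and 1198, and 709 and 1183, so replicate 2 was higher in total RNA at every time. Its coding transcripts had median ratios of 1.97 and 2.12. Ppp1r15a (GADD34), a phosphatase subunit that restores translation after stress, was a member through a noncoding processed transcript, its only tested transcript. This transcript had a mean of 73.5 ± 9.46 in labeled and 27.5 ± 8.36 in total RNA (SD, n = 6 each). It held 36.6% of the gene's summed total, and the sum over the gene had a lowest ratio of 2.215.

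Members linked to p53, the DNA damage response factor, came from Aen, an apoptosis nuclease, and Pidd1, a death domain protein outside the list of p53 and its targets. The Aen transcript was the 1 member among 62 transcripts in that list (1.61%, against 0.539% of all tested transcripts). Pidd1 had 3 of 4 tested transcripts in the set, and ENSMUST00000130878 had labeled values of 109 and 97.6 at 15 min, 133 and 146.5 at 30 min and 115 and 103 at 60 min, against total values between 35.8 and 51.1. The Aen member was a noncoding processed transcript, with a mean of 119 ± 42.4 in labeled and 42.6 ± 10.4 in total RNA. Coding transcripts of Aen had median ratios of 0.977 to 1.11, and the sum over the gene had a lowest ratio of 1.03. Of the list, 7 transcripts (11.3%, against 7.63% of all tested transcripts) had a median ratio of at least 1.5, 3 of them from Gadd45a and 2 from Cdkn1a. The list's median ratio of 0.901 was close to the 0.909 of all tested transcripts, and the 6 Trp53 transcripts had 0.569 to 0.702.

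Other lists contributed few or none. Of 13 tested long noncoding RNA transcripts, 1 was a member (7.69%, against 0.539% of all tested transcripts). It came from Tsix, the antisense partner of Xist, whereas Malat1, Neat1 and Tug1 transcripts were not members. Among the 13, 3 (23.1%, against 7.63%) had a median ratio of at least 1.5, namely Tsix and 2 Neat1 transcripts (1.72 and 1.79). In 2 of the 13 (15.4%, against 4.78%) the ratio was above 1 in all 6 pairs. The median ratio of this list was 1.296, against 0.909 over all tested transcripts. No member was found among the 85 transcripts of pluripotency factors (median ratio 0.859), the 43 of the Myc and Max network (0.933) or the 29 of feedback inhibitors (1.19). The 344 of cytosolic ribosomal proteins (1.10), the 66 of replication-dependent histones (1.01) and the 126 of mRNA decay regulators (0.696) held none either. As 0.539% of all tested transcripts were members, lists of these sizes would hold few or none, and the counts of 0 say little about them. Of the feedback inhibitor transcripts, 10.3% had a median ratio of at least 1.5 against 7.63%. A share of 27.6% was above 1 in all 6 pairs against 4.78%, with isoforms of Socs2 among them. The Zfp zinc finger family had 2 members among 716 transcripts, Zfp612 and Zfp719, a share of 0.279% against 0.539% of all tested transcripts. Its list median ratio was 1.06 against 0.909, 10.3% of its transcripts had a median ratio of at least 1.5 against 7.63%, and 12.4% were above 1 in all 6 pairs against 4.78%. Gapdh, the glycolytic enzyme, shows that isoforms of 1 gene can differ. Its retained-intron transcript ENSMUST00000144588 had a median ratio of 3.32 at a mean total of 79.3, while its 3 coding transcripts, at means of 22211 to 24943, had median ratios of 0.701 to 0.774. A second retained-intron transcript, ENSMUST00000147954, had a median ratio of 0.888 at a mean total of 36065. The member held 0.0722% of the gene's summed total, and whether the ratio goes with the biotype was not tested. Tubb4b, a tubulin, was likewise a member through a noncoding isoform, with 259 ± 49.4 in labeled and 123 ± 19.8 in total RNA.

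**Figure D4:**
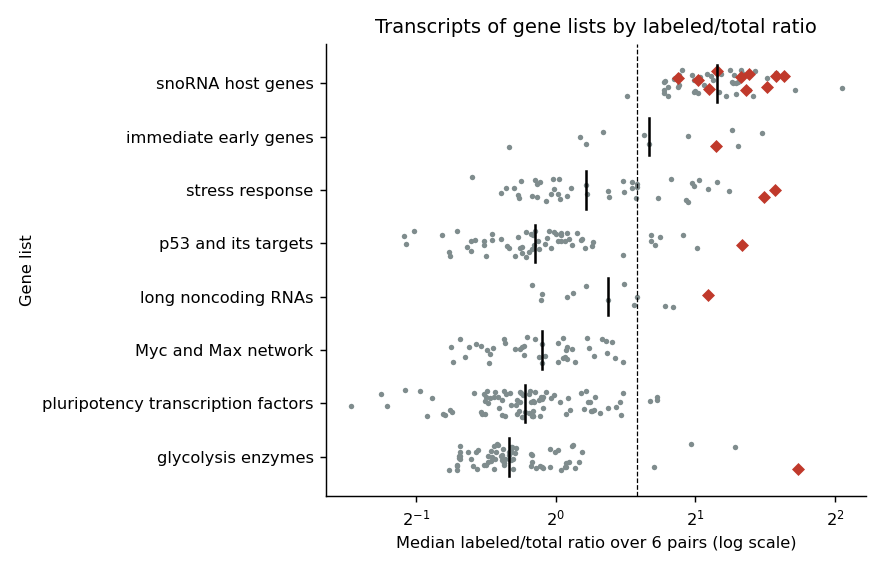
Median labeled/total ratio over 6 pairs (log scale) of each tested transcript of 8 gene lists, with members as red diamonds, other transcripts as grey points, list medians as vertical bars and the value 1.5 as a dashed line. In the snoRNA host list, 52 of 53 transcripts have a median ratio of at least 1.5, whereas pluripotency factors lie mostly below 1.

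Members whose gene has other tested isoforms were compared with them. The 44 member genes of this kind had 167 other tested transcripts with a median ratio of 1.56, and 89.8% of them were above 1, against 37.7% of all tested transcripts. When exon rows were summed over each M1 gene, 65 of 13218 genes (0.492%) met the rule, among them 44 of the 88 member genes. Txnip, Zfas1, Dancr, Pidd1 and Cox20 were among these 44, whereas Gas5 (lowest ratio of the sum 1.47), Snhg12 (1.39), Dusp1 (1.25) and Gapdh (0.661) were not. Reads shared by isoforms were divided by RSEM before deposition.

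The 3 most abundant members were 2 Ensembl transcripts outside M1 and a pseudogene. ENSMUST00000187714 had a mean of 107429 in labeled and 33072 in total RNA. The processed pseudogene Gm11407 had labeled values of 58210, 46631, 66350, 64150, 35741 and 70250, in order of labeling time and replicate, and total values between 10735 and 17956. A pseudogene shares sequence with its parent, so its reads can come from either. The highest lowest ratios belonged to 5 assembled transcripts, led by TCONS_00055525, which had labeled values of 229 and 117 at 15 min, 144 and 139 at 30 min and 198 and 77.3 at 60 min, against total values of 22.1 to 38.9. Over the 66 assembled members, the highest mean in total RNA was 120.

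Coding members of other functions included Slirp, which stabilizes mitochondrial mRNAs, with 490 ± 40.8 in labeled and 256 ± 31.0 in total RNA (SD, n = 6 each), Cox20, a cytochrome oxidase assembly factor, with 239 ± 47.6 and 133 ± 29.6, and Ranbp6, an importin family member, with 109 ± 16.4 and 49.9 ± 10.4. The Slirp member was 1 of 4 tested transcripts of its gene and held 21.0% of the gene's summed total. The sum over that gene had a lowest ratio of 1.16. A 3′ untranslated region could be read for 31 members. The AU-rich nonamer TTATTTATT, a binding site of decay factors, stood in the 3′ untranslated region of 3 of them (9.68%, exact 95% interval 2.04% to 25.8%) against 5.72% of 17367 tested transcripts. The windows of 30 bases below, from GENCODE M1 transcripts, show it in capitals.
4930548H24Rik: ccaatgaagtTTATTTATTagccagaaaat
Rint1: ttttaaagatTTATTTATTattatatctat
The shorter pentamer ATTTA was found in 54.8% of members against 61.1% of tested transcripts, and the Pumilio motif TGTANATA in 9.68% against 21.9%. Untranslated regions of members had a median length of 924 bases against 756.

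Introns, which the rule did not use, were also higher in labeled RNA. Of 233 members, 123 had an intron row and 101 had intronic values in all 12 libraries. Their median labeled/total ratio over 6 pairs was 2.57, against 1.43 for introns of 32969 other tested transcripts. The ratio was above 1 in all 6 pairs for 66 of the 101 (65.3%), against 25.1% of all tested transcripts with intronic values, and at least 1.5 in all 6 for 22 (21.8%), against 5.78%. Both sides come from the same libraries, so the pairs are not independent of the choice of members. In total RNA, intronic values were 45.6% of exonic values in the median member and 14.1% in the median other transcript, and exceeded them in 12 members (11.9% against 2.94%). In labeled RNA they were 45.3% and 26.2%. In Gas5 the intronic mean in total RNA was 95.3% of the exonic mean for ENSMUST00000160516 and 38.2% for ENSMUST00000159153, whereas in Snhg12 it was 8.66%. The 101 include isoforms of the same gene, such as those of Gas5 and of Zfas1, which can share introns. Introns of snoRNA hosts also carry snoRNAs, and their part in these intronic values was not tested. Retained-intron transcripts of Ppp1r10, a nuclear phosphatase subunit, and of 1110038B12Rik had the highest intronic median ratios, 6.17 and 4.26.

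**Figure D5:**
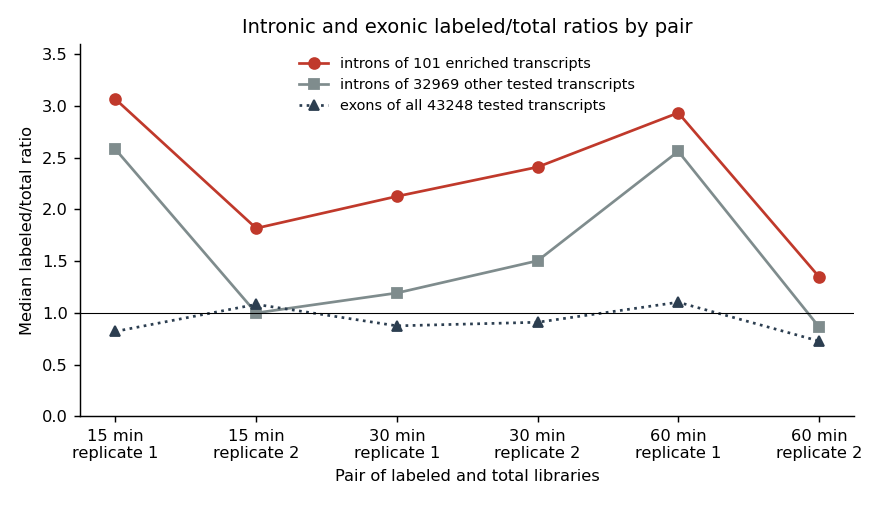
Median labeled/total ratio in each of the 6 pairs for introns of 101 members (red circles), introns of 32969 other tested transcripts (grey squares) and exons of all 43248 tested transcripts (dark blue triangles). Member introns lie above the others in every pair, from 1.35 at 60 min in replicate 2 to 3.07 at 15 min in replicate 1.

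Longer labeling could bring values of labeled and total RNA together, and levels were compared between 60 and 15 min. limma on log2(value + 1), fitted over 45495 transcripts, called 0 of 233 members in labeled RNA (Benjamini-Hochberg adjusted p under 0.05) and 0 in total RNA, and the lowest adjusted p was 1 in each. The values of both times also entered the rule, so these counts describe the members and support nothing about them. Over all transcripts, 0% were called in each comparison. At an unadjusted p under 0.05, 2 members were lower at 60 min in labeled RNA (1.09% of all transcripts passed), and 7 were higher and 1 lower in total RNA (0.651%). Single libraries moved these counts. In labeled RNA they were 14 higher and 2 lower without replicate 1 at 15 min, 0 and 25 without replicate 2 at 15 min, 8 and 9 without replicate 1 at 60 min, and 3 and 6 without replicate 2 at 60 min. In total RNA they were 13 and 1 without replicate 1 at 15 min, 1 and 1 without replicate 2 at 15 min, and 1 and 2 without replicate 2 at 60 min. Of 78 member introns tested in labeled RNA, 0 were called and 1 reached an unadjusted p under 0.05 (0.169% of 18349 introns), against up to 9 with 1 library left out (without replicate 1 at 60 min). The median change of members was -0.04 in labeled RNA, 0.11 in total RNA and -0.16 in ratio, as log2 differences, beside -0.11, -0.02 and -0.09 over all transcripts. Single libraries turned these signs. Without replicate 1 of labeled RNA at 15 min the members' median was 0.25 in labeled RNA and 0.13 in ratio, without replicate 2 at 60 min it was 0.03 in labeled RNA, and without replicate 2 of total RNA at 15 min it was -0.07 in total RNA. With libraries centred on their median it was 0.08 in labeled RNA, where all transcripts had 0.01. In total RNA the Gas5 transcript ENSMUST00000160516 had a log2 difference of 0.69 ± 0.22 (SE, limma adjusted p = 1) and the Ppp1r15a transcript had -0.79 ± 0.31 (SE, limma adjusted p = 1). In data simulated for this design, 0 of 200 transcripts with a log2 change of 1 and 99 of 200 with a log2 change of 2 were recovered after adjustment, and 137 of the 200 with the smaller change reached an unadjusted p under 0.05. The simulation was made for labeled RNA alone.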

How the data were processed

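Per the submitters' processing notes, reads were aligned with STAR 2.5.0 to build mm10 and quantified with RSEM. The authors deposited 1 table of exon and intron rows, and its 12 value columns were each matched to a sample. The deposited values are a score, taken here as length-normalized abundances, that sum to nearly the same value in every library, and the smallest is 1.01. No source used here names their scaling, on which comparisons between transcripts and intron percentages depend. They are not counts, so the planned fallback for counts was not used.

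Ratios were taken within the 6 pairs. Transcripts were matched by identifier to GENCODE M1 (build NCBIM37), and promoters by symbol to RefSeq. The authors' exact annotation was not used here. Members and gene lists were chosen with earlier results of these data known. Genes were named by rule: the 10 with the highest lowest ratio, the 10 with the highest mean total, the 5 with the most member transcripts, up to 4 per gene list, called genes, and 3 on each side of the cutoff. Dusp1 coding, Ier2, Egr1, Pidd1, Slirp, Mir22hg, Ppan, Ranbp6, Ppp1r10 and nonmember isoforms were named after their values were seen where they fall outside it.

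Time points were compared with limma 3.58.1 in R 4.3.3, with a mean-variance trend, on log2(value + 1) for rows with a mean of at least 20 over the 12 libraries, which understates changes of low transcripts, and tested on simulated data. Replicate numbers share a passaged culture per the methods, and between groups the correlation of replicate deviations ran from -0.300 to 0.344. Alternatives were other level and ratio minimums, other scalings, the replicate block and each replicate left out. Other tools were Python 3.11.15, numpy 2.4.6, pandas 2.3.3, scipy 1.17.1 and matplotlib 3.10.9.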

Additional observations from a re-analysis of the deposited data

Results flagged for a closer look

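In 48 groups of 6 libraries tested by Dixon's criterion for 6 values, 3 held a library far from the others, where chance gives 2.4. They were the labeled value of Txnip at 30 min in replicate 2 (3688), that of Snhg20 at 60 min in replicate 2 (584) and that of Zfp719 at 15 min in replicate 2 (313). All 3 were high and in labeled RNA of replicate 2. The 6 values span 3 labeling times. Without that pair, each of the 3 transcripts still met the cutoff of 1.5 in the other 5 pairs, as the rule requires.

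Of 96 lincRNA exon rows held apart in the table, which the comparisons above did not use, 35 passed the level filter and 1, linc1312, met the rule. It had a lowest ratio of 1.64 and a median ratio of 3.16 at a mean of 25.3 in total RNA. Its labeled values at 15, 30 and 60 min were 81.1, 58.6 and 64.8 in replicate 1 and 44.5, 94.6 and 55.8 in replicate 2, and its total values were 43.3, 17.3 and 14.5 and 15.2, 27.5 and 34.0.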

How the results depend on the processing

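The number of transcripts moved by over 1.5 times with most choices, but was 276 with exonic sums made equal and 219 with 1 transcript per gene. It was also 668 with a mean total of at least 5 and 39 with at least 100, 59 with a ratio cutoff of 2 and 499 with 1.3. On the pairs of a single replicate, with the level filter on that replicate, it was 551 without replicate 1 and 1256 without replicate 2. Chosen after seeing the data, centring ratios on each pair's median gave 398 (194 of them members), leaving out 1 pair gave 253 to 582, with 449 without 15 min replicate 2 and 376 without 60 min replicate 1, leaving out both 15 and 60 min of replicate 2 gave 1045, and summing exon rows per gene gave 65. The share with the AU-rich nonamer was 0% at a mean total of at least 100 and at a cutoff of 2, from few untranslated regions. The intronic median ratio (2.05 to 2.87) and the retained-intron share (19.9% to 34.8%) moved by less than their spread. The 7 snoRNA host genes with a member that M1 does not call protein-coding were 5 to 9 under other settings, but 1 at a cutoff of 2. In the time tests 0 members were called under every alternative run, the replicate block (0) and each left-out library included, where a lone library is assumed to vary like the other groups. With 2 replicates per group, depth unknown and a log2 change of 1 not recovered in simulated labeled RNA after adjustment, a count of 0 says little about stability.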
